A study of Arabidopsis thaliana with 12 samples.

Results

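TBL26, TBL34, TBL36 and TBL39 are 4 genes of the TRICHOME BIREFRINGENCE-LIKE (TBL) family of Arabidopsis thaliana, and their transcripts were followed while cultured cells turned into tracheary elements. Each was read by the 1 probe set that the platform annotation gives to that gene alone, which makes 4 of the 13350 genes that have such a probe set. The 4 genes were chosen by their measured signals over all 6 days. Their signals and differences are therefore a description, with no test, and the tests below concern other genes. The lists of those genes were also drawn up with earlier results of these data known, so their p-values are not free of that choice.

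Cells of the Col-0 suspension culture were sampled on Affymetrix ATH1 arrays at 6 times, with 2 arrays per time and 12 in all. Samples of days 2, 4, 6, 8 and 10 came from 7.5 ml of culture, 7 days after its last passage, put into 42.5 ml of new medium that held the brassinosteroid brassinolide at 1 uM and boric acid at 10 mM, beside sucrose. Day 0 cells had no treatment, and the labels list for all samples a second medium as well, with sucrose and the synthetic auxin 2,4-D. The labelled temperature was 27 C on days 2, 6 and 10, against 22 C on days 0, 4 and 8. Every comparison with day 0 thus spans new medium, hormone, boric acid and culture age together, and those of days 2, 6 and 10 also span a change of temperature; these cannot be told apart. The labels do not say that the 2 arrays of a day are separate cultures, so their spread may be technical. No share of cells that had become tracheary elements is used here, and in whole-culture RNA fewer cells of a type and less RNA per cell cannot be told apart.

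TBL proteins are known mainly as Golgi enzymes that move acetyl groups onto wall polysaccharides before these are exported. TBL38, described below, is an exception. Acetylation changes how xylan, mannan, xyloglucan and pectin pack against cellulose and how open they are to enzymes. Tracheary elements are the vessel cells of xylem: they lay down a thick patterned wall of cellulose, acetylated xylan and lignin and then die, so xylan acetylation is a known part of building them. TBL34 acetylates xylan together with its close relative TBL35. TBL26 is one of the mannan acetyltransferases, with TBL23 and TBL25. For TBL36 and TBL39 no polymer is given here.

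The 4 genes had 4 different courses. TBL34 signal was near background on days 0 and 2 and highest on day 6. TBL36 was highest on day 4. TBL39 and TBL26 were highest on day 0, with their lowest means on days 6 and 4. All values are the deposited signals on a linear scale. A signal is called dim where it lies under the 40th percentile of its array, which was between 17.2 and 22.1 on the 12 arrays. Over the 15103 probe sets tested, limma called 35.3% higher and 26.1% lower on day 2 against day 0; nothing is read from this share for the 4 genes, whose choice used the same values. All 4 passed the filter for testing, which needs both arrays of at least 1 day at or above that percentile, but TBL34 and TBL36 would not have passed on day 0 alone.

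TBL34, the xylan acetyltransferase, gave signals of 16.2 and 11.0 (day 0), 6.35 and 10.2 (day 2), 343 and 419 (day 4), 938 and 876 (day 6), 609 and 561 (day 8), and 383 and 339 (day 10). Both arrays of days 0 and 2 were dim, so no fold between those days is given. The 4 late days were high and did not overlap days 0 and 2. Days 4 and 10 overlapped each other, and every other pair of neighbours in the order day 6, day 8, day 4, day 10 was separated by more than the gap between its replicate arrays. Against day 0, with each array raised to its 40th percentile, TBL34 was at least 20.8-fold higher on day 4 and at least 49.8-fold higher on day 6. The bounds for days 8 and 10 were at least 32.1-fold and at least 19.8-fold. The log2 difference, day 6 minus day 4, was 1.26 ± 0.22 (standard error of the limma fit, n = 2 arrays a day, as throughout). From day 6 the signal was lower at each later time, and day 10 minus day 6 was -1.33 ± 0.22. Day 10 stood at 39.8% of the day 6 mean.

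TBL36 gave 8.97 and 17.0 (day 0), 90.7 and 92.1 (day 2), 257 and 325 (day 4), 119 and 152 (day 6), 93.0 and 107 (day 8), and 79.0 and 73.7 (day 10). Both day 0 arrays were dim, and all 10 later arrays were above their percentile. TBL36 was already at least 5.02-fold above day 0 on day 2, when TBL34 was still dim, and at least 15.9-fold above it on day 4. Day 6 minus day 4 was -1.10 ± 0.24, and day 10 stood at 26.2% of the day 4 mean. Even so, day 10 was at least 4.19-fold above day 0. Days 8 and 2 came close to touching, with 93.0 and 107 against 90.7 and 92.1.

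TBL39 gave 542 and 457 (day 0), 326 and 348 (day 2), 79.9 and 126 (day 4), 74.5 and 80.2 (day 6), 115 and 121 (day 8), and 114 and 121 (day 10). No array was dim, so these differences are measured on both sides. Against day 0 the log2 difference was -0.56 ± 0.17 on day 2, -2.31 ± 0.17 on day 4 and -2.69 ± 0.17 on day 6, when 15.5% of the day 0 mean was left. Most of the difference lay between days 2 and 4, with day 4 minus day 2 at -1.75 ± 0.17. Day 4 overlapped days 6, 8 and 10 with its arrays apart at 79.9 and 126, whereas both arrays of days 8 and 10 lay above both of day 6. Day 10 minus day 6 was 0.60 ± 0.17.

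TBL26, the mannan acetyltransferase, had the smallest range of the 4. Its signals were 60.8 and 52.2 (day 0), 45.7 and 38.1 (day 2), 32.8 and 24.1 (day 4), 35.8 and 31.9 (day 6), 37.6 and 37.4 (day 8), and 38.0 and 42.6 (day 10). No array was dim, so these differences too are measured on both sides. Against day 0, the log2 difference was -0.43 ± 0.19 on day 2, -1.0 ± 0.19 on day 4, -0.74 ± 0.19 on day 6 and -0.49 ± 0.19 on day 10. Both later arrays lay below both day 0 arrays on each of the 5 days. Days 2 and 10 overlapped, as did days 4 and 6, and day 10 minus day 8, 0.10 ± 0.19, was smaller than its standard error.

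**Figure D1:**
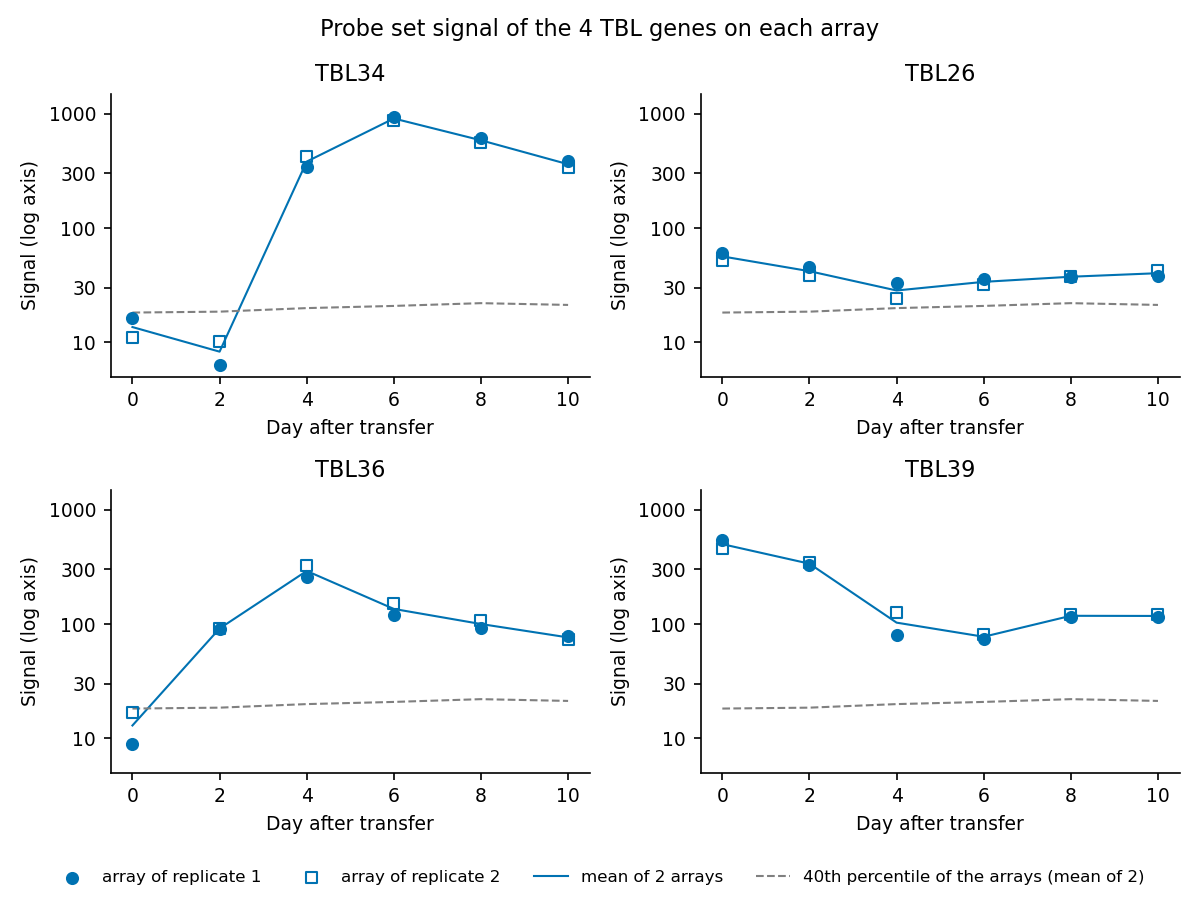
Probe set signal (log axis) of TBL34, TBL26, TBL36 and TBL39 against day after transfer; filled circles and open squares are the 2 arrays of a day, the line joins their means, and the dashed line is the 40th percentile of the arrays. TBL34 lies under the dashed line on days 0 and 2 and is highest on day 6 (938 and 876), TBL36 is highest on day 4 (257 and 325), and TBL39 and TBL26 are highest on day 0.

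Days of equal labelled temperature can be compared without that change. Among the 27 C days, TBL34 was at least 48.9-fold higher on day 6 than on day 2, and day 10 minus day 6 was -1.33 ± 0.22. Among the 22 C days, the log2 difference of day 8 minus day 4 was 0.62 ± 0.22 for TBL34 and -1.54 ± 0.24 for TBL36, so these 2 genes went opposite ways between those days. Day 0 is a 22 C day too, though comparisons with it span the new medium and treatment. Against day 0, TBL34 was at least 20.8-fold higher on day 4 and at least 32.1-fold on day 8. TBL36 was at least 15.9-fold and at least 5.48-fold higher, while TBL39 and TBL26 were lower on both days. At 27 C, day 6 minus day 2 was 0.56 ± 0.24 for TBL36 and -2.12 ± 0.17 for TBL39. For TBL39 the difference of day 8 minus day 4, 0.23 ± 0.17, was -0.09 without replicate 1 of day 4 and 0.56 without replicate 2. For TBL26, day 8 minus day 4 was 0.42 ± 0.19, with 0.64 when the first array of day 4 was left out and 0.20 when the second was, and day 6 minus day 2 was -0.31 ± 0.19.

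TBL35 and TBL32, other xylan acetyltransferases, were not called higher on day 6, when TBL34 was highest. TBL35, which adds acetyl groups to the same positions of xylan as TBL34, had its highest mean on day 0 and gave 33.0 and 33.3 on day 6, against 53.2 and 42.3 on day 0. By limma with Benjamini-Hochberg adjustment over 15103 probe sets, TBL35 fell on day 2 (-0.57 ± 0.21, adjusted p = 0.0315), day 6 (-0.52 ± 0.21, adjusted p = 0.0471), day 8 (adjusted p = 0.0338) and day 10 (adjusted p = 0.0461), and it did not pass on day 4 (-0.37 ± 0.21, adjusted p = 0.142). All 4 of these calls were lost without replicate 1 of day 0, where the differences were -0.41 (day 2), -0.35 (day 6), -0.39 (day 8) and -0.35 (day 10). They were lost without other single arrays too: either array of day 2 for days 2, 6 and 10, either array of day 6 or day 10 for days 6 and 10, and replicate 2 of day 8 for day 8 (-0.33). With no filter on dim probe sets the calls of days 6, 8 and 10 were lost as well, at unmoved differences of -0.52, -0.56 and -0.52. TBL32, which acetylates xylose units that carry glucuronic acid, gave 77.1 and 75.9 on day 6, against 75.4 and 75.3 on day 0 (0.02 ± 0.11, adjusted p = 0.870). Its probe set is of a type that can match several transcripts. TBL32 passed on day 4 alone (0.34 ± 0.11, adjusted p = 0.0170), and not with quantile normalization (0.23), with arrays centred on their medians (0.22), or when either array of day 0 (0.34 both times) or the second array of day 4 (0.25) was left out. TBL28 and TBL30, also xylan acetyltransferases, were dim on all 12 arrays.

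3 genes of xylan synthesis had their highest mean on day 6, as TBL34 did. Of 25 symbols and aliases of xylan synthesis genes listed for this comparison, the annotation named 3 genes, and all 3 were tested: IRX10, a xylan synthase subunit, and IRX15 and IRX15-L, needed for xylan of normal length. IRX15 and IRX15-L were dim on days 0 and 2 and passed the filter through later days alone, so a higher call was favoured for both, and only IRX10 was measured on both sides. All 3 were called higher on day 6 against day 0, a day on which 34.5% of all tested probe sets were called higher and 28% lower; nothing is read from this count. IRX10 gave 564 and 426 on day 6, against 53.5 and 50.1 on day 0 (3.24 ± 0.16, adjusted p = 1.29e-08). IRX15-L was at least 20.8-fold and IRX15 at least 11.3-fold higher. Their limma calls (adjusted p = 1.25e-06 and 1.93e-06) are of the deposited signals, dim ones included, not of these bounds. This list too was drawn up with earlier results of these data known. None of the 3 passed limma on day 2 (adjusted p from 0.107 to 0.586, and 0 of 3 at an unadjusted p under 0.05), although IRX15-L did without replicate 2 of day 0 (-2.40) and IRX15 without replicate 2 of day 2 (2.66), both while dim. As a share of its day 6 mean, TBL34 stood at 42.0% on day 4 and 39.8% on day 10. On the same scale IRX10 stood at 25.8% and 27.9%, IRX15 at 24.9% and 21.9%, and IRX15-L at 20.4% and 20%. The difference in shape between TBL34 and these 3 was not tested, since the course of TBL34 was used to choose it.

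TBL23 and TBL25, the other mannan acetyltransferases named by the annotation, were each called lower than day 0 on 1 day. TBL23 fell on day 2, with 29.7 and 39.6 against 52.1 and 51.9 on day 0 (-0.60 ± 0.16, adjusted p = 0.00766), a call lost without replicate 1 of day 2 (-0.39). It was back on day 4, at 0.16 ± 0.16 against day 0 (adjusted p = 0.428). TBL25 fell on day 4, when TBL26 had its lowest mean: TBL25 gave 34.6 and 36.2 on day 4, against 55.6 and 45.4 on day 0 (-0.50 ± 0.15, adjusted p = 0.0137). That call was lost when the first array of day 0 (-0.36) or of day 4 (-0.47) was left out. On day 10 TBL25 was at -0.28 ± 0.15 (adjusted p = 0.130), and it was called lower there with quantile normalization (-0.49) and with median centring (-0.51). Of 17 symbols and aliases of mannan synthesis genes the annotation named 2 genes, CSLA01 and CSLA03, and neither passed the filter for testing.

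**Figure D2:**
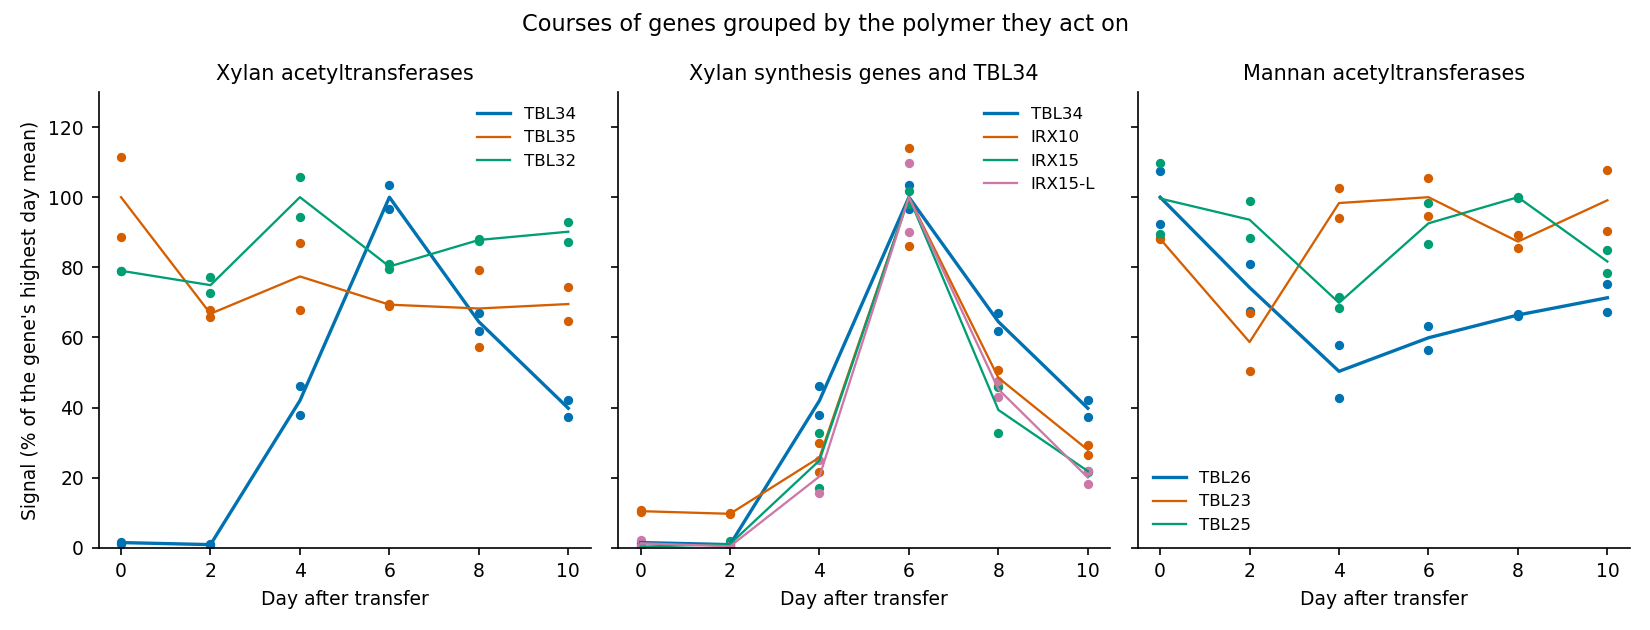
Signal as a percentage of each gene's highest day mean (y axis) against day after transfer; lines join day means and points are single arrays. TBL34 and the 3 xylan synthesis genes reach 100% on day 6, the means of TBL35 and TBL32 stay at or above 66.8% and 74.9% of their maximum, and TBL26, TBL23 and TBL25 have their lowest means on days 4, 2 and 4.

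In the rest of the family, the balance of higher and lower calls depended on which probe sets were counted. The annotation named 23 TBL genes on 24 probe sets. TBL29 and TBL33, known xylan acetyltransferases, are not among them and are not analysed here. Beside the 4 described above these are 19 genes on 20 probe sets, of which 10 probe sets of 9 genes passed the filter. Of the 10 that did not, 8 were dim on all 12 arrays. On day 2, 6 of the 10 were called higher and 2 lower, against 35.3% and 26.1% of all tested probe sets; without replicate 2 of day 0 the higher calls were 3. Those of TBL18, TBL37 and TBL38 were each lost without single arrays, and TBL38 was dim on both days. On day 4 the counts were 7 and 1, against 35.8% and 25.8%. On day 6 they were 6 and 1, against 34.5% and 28%, on day 8 they were 5 and 1, against 36.2% and 27.3%, and on day 10 they were 4 and 1, against 36.4% and 27.6%. The call of TBL37 on day 6 was lost with median centring (0.38) and without replicate 2 of day 6 (0.39). Its day 8 call (0.45) was lost with quantile normalization (0.26), with median centring (0.19) and without either array of day 0 or day 8 (0.40 to 0.50). The median log2 change of the 10 was 0.38 on day 2, 0.68 on day 4 and 0.27 on day 10, against 0.07, 0.10 and 0.08 over all probe sets tested. TBL38 and both TBL40 probe sets passed the filter through later days alone, so a higher call was favoured for these 3 of the 10. The other 7 gave 3 higher and 2 lower (day 2), 4 higher and 1 lower (day 4), 3 higher and 1 lower (day 6), 2 higher and 1 lower (day 8), and 1 of each (day 10), a count added after the data were seen. Their median log2 change was -0.08 on day 2, 0.34 on day 4 and 0.19 on day 10. The lower calls were those of TBL35 and TBL23 on day 2, TBL25 on day 4 and TBL35 on days 6, 8 and 10, each lost without 1 array as given above.

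The comparisons below, between days of equal temperature and without day 0, had fewer calls, in the family and over all tested probe sets. Days 4 and 8 against day 0, counted above, are of equal temperature too (22 C). For day 6 against day 2 at 27 C, 4 of the 10 were called higher and none lower, against 25.6% and 27.7% of all tested probe sets. Limma called TBL38, TBL23 and both TBL40 probe sets, which read the same gene. TBL38 was dim on day 2, and it was not called with arrays raised to their 40th percentile (0.41). Without TBL38 and TBL40, the other 7 probe sets gave 1 higher and 0 lower, so no excess is read from the count. For day 8 against day 4 at 22 C, 1 was called higher and 2 lower, against 12.2% and 10.8%, and each of these 3 calls was lost in at least 2 fits that left out a single array. These were TBL25 (0.52 ± 0.15), TBL18 (-0.51 ± 0.12) and TBL37 (-0.56 ± 0.16). They were lost without any 1 of the 4 arrays of days 4 and 8 for TBL25 (0.49 to 0.55), without replicate 2 of day 4 or of day 8 for TBL18 (-0.45 to -0.38), and without those 2 arrays or replicate 1 of day 8 for TBL37 (-0.60 to -0.42). TBL25 was also not called with quantile normalization or median centring (0.39 and 0.38), whereas TBL38 was called higher with a pseudocount (0.75) and with arrays raised to their 40th percentile (0.87). For day 10 against day 6 at 27 C, none of the 10 was called by limma (2 at an unadjusted p under 0.05), against 10.7% of all probe sets higher and 8.59% lower; TBL38 was called there with a pseudocount (1.06), with arrays raised to their 40th percentile (1.23) and without either day 0 array (1.33), and TBL18 with quantile normalization (-0.43). On the same arrays, day 10 minus day 6 was -1.33 ± 0.22 for TBL34 and -0.82 ± 0.24 for TBL36.

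TBL40 had the highest bound among the other TBL genes. The annotation lists it by its locus, AT2G31110, and RefSeq (assembly TAIR10.1) gives TBL40 as another name. It is read by 2 probe sets. The first gave 102 and 113 on day 2 and 267 and 246 on day 4, against 18.3 and 14.1 on day 0, and was at least 14.1-fold higher on day 4. The second gave 192 and 230 on day 2 and 513 and 552 on day 4, against 15.8 and 13.8, and was at least 29.2-fold higher on day 4. Both were dim on day 0 and called higher on all 5 later days (largest limma adjusted p = 2.86e-08), a call that was favoured, as above. These tests are of the deposited signals, dim ones included, not of the bounds. The day 10 means of the TBL40 probe sets were 87.0% and 90.4% of their highest day mean, beside 26.2% for TBL36, and neither probe set was called different on day 10 against day 6 (adjusted p = 0.650 and 0.384).

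TBL38, known from seed mucilage as a pectin acetylesterase and thus an enzyme that takes acetyl groups off, was dim on days 0 and 2 and highest at the end. It gave 18.0 and 26.6 (day 4), 40.3 and 45.6 (day 8) and 55.6 and 60 (day 10), against 1.35 and 0.496 (day 0). On day 10 it was at least 3.17-fold higher. The limma call there (adjusted p = 4.56e-07) is of the deposited signals, dim ones included, not of this bound. A higher call of TBL38 was favoured, as above. Its calls of days 4 and 6 did not hold with arrays raised to their 40th percentile (0.37 and 0.43), and 1 array of each of these days was dim. TBL37 rose on day 4, the day on which TBL36 peaked, to 130 and 156, against 72.5 and 69.2 on day 0 (1.01 ± 0.16, adjusted p = 1.75e-04). TBL18 rose on day 4, with 94.6 and 113 against 61.2 and 64.6 (0.72 ± 0.12, adjusted p = 3.16e-04). TBL16 was called higher on all 5 later days, with 102 and 95.9 on day 6 against 60.2 and 61.7 on day 0 (0.70 ± 0.10, adjusted p = 9.17e-05).

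**Figure D3:**
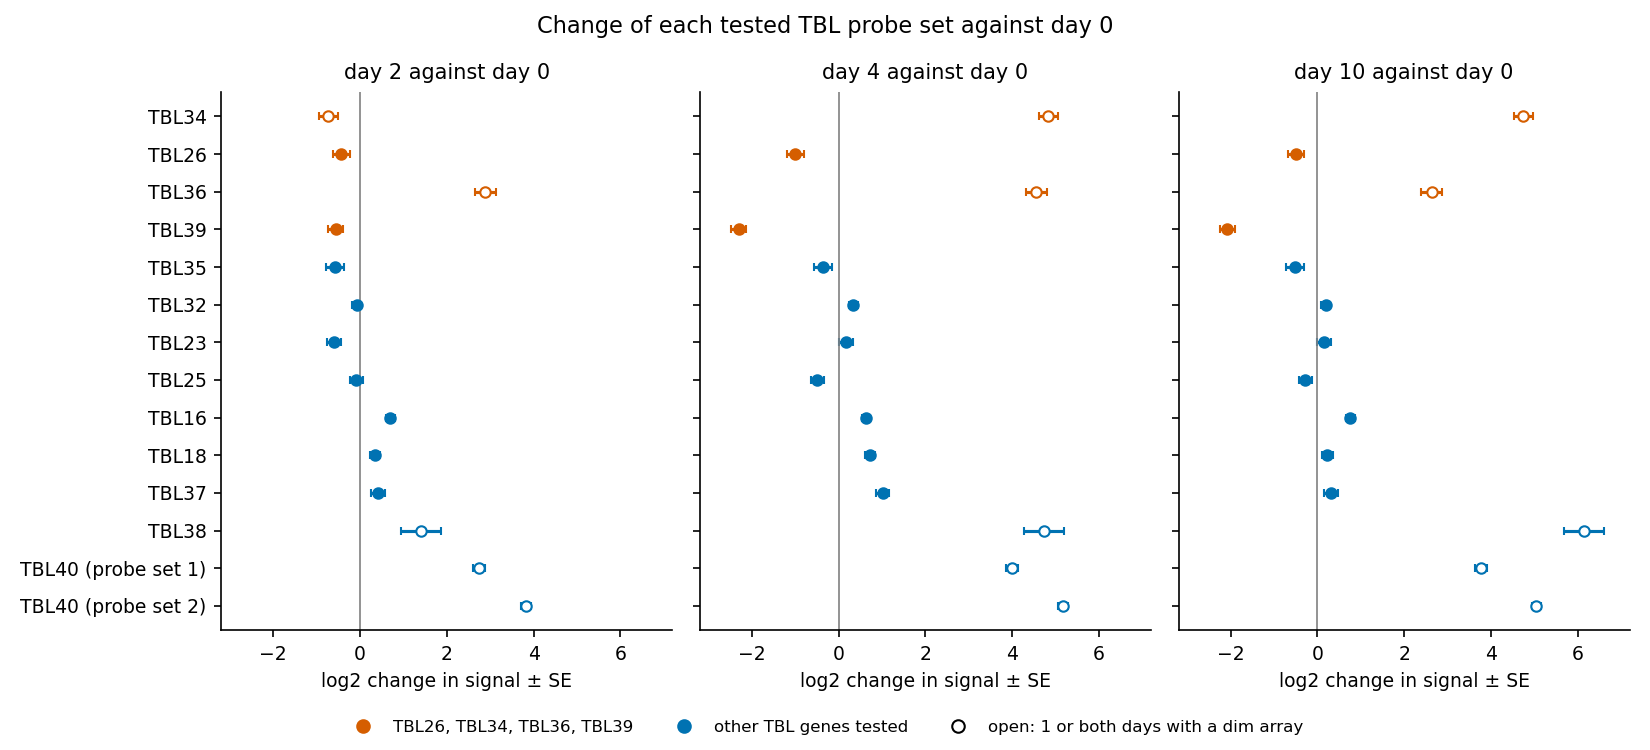
Log2 change in signal against day 0 (x axis, ± standard error of the limma fit, 2 arrays a day) on days 2, 4 and 10 for TBL34, TBL26, TBL36 and TBL39 (orange) and the 10 other tested TBL probe sets (blue); open symbols have a dim array on 1 or both days, so their size is not a measured fold. TBL39 and TBL26 lie left of 0 in all panels, TBL34 is far right of 0 on days 4 and 10, and TBL36 and TBL40 are right of 0 from day 2 on.

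Other wall genes on the lists were few, because the annotation names part of the array. It named none of the 6 symbols listed for the acetyl supply to TBL enzymes (the RWA transporters and AXY9), of the 12 pectin acetylesterases, of the 10 symbols for secondary wall cellulose or of the 26 secondary wall regulators; these are not analysed here. Of 5 named CSLC genes, which make the xyloglucan backbone, 4 were tested. Against day 0, 2 of these were called higher on day 6 and 1 lower, against 34.5% and 28% of all tested probe sets. CSLC8 did not pass (0.45 ± 0.20, adjusted p = 0.0726), but was called higher with arrays raised to their 40th percentile (adjusted p = 0.0416) and with no variance trend (adjusted p = 0.0487). CSLC4 gave 696 and 618 on day 6, against 312 and 265 on day 0 (1.19 ± 0.10, adjusted p = 1.36e-06). CSLC6 was higher by 0.98 ± 0.11 (adjusted p = 1.26e-05), and CSLC5 was lower, with 114 and 99.8 against 234 and 213 (-1.06 ± 0.10, adjusted p = 3.11e-06). The pectin gene GAUT15 was lower on day 6 (-0.75 ± 0.17, adjusted p = 0.00263). COB, which orients primary wall cellulose, was at -0.24 ± 0.10 on day 6 (adjusted p = 0.0429), a call lost without either array of day 0, 6 or 10 (-0.29 to -0.20).

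Tracheary element markers were highest on the day of the TBL34 maximum, and no marker sum had its highest or lowest range on day 4, when TBL36 was highest and TBL26 lowest. Of 21 tracheary element markers listed, the annotation named 5: IRX10, IRX15, IRX15-L, the lignin enzyme HCT and the carboxypeptidase SCPL48. Their summed signal per array was 721 to 786 (day 0), 978 to 1080 (day 2), 1896 to 2346 (day 4), 4222 to 5261 (day 6), 3334 to 3575 (day 8) and 2679 to 2685 (day 10). SCPL48 carried most of this sum, with 3282 and 2588 on day 6, against 620 and 558 on day 0. HCT gave 787 and 663 on day 6, against 104 and 111. The sum was highest on day 6, as was TBL34. Against day 0, 2 of the 5 were called higher on day 2, against 35.3% of all tested probe sets, and nothing is read from this count. All 5 were called higher on days 4, 6, 8 and 10, where 34.5% to 36.4% of all tested probe sets were. For IRX15 and IRX15-L a higher call was favoured, as above. IRX10, IRX15 and IRX15-L are also the xylan genes described above, so their calls are not separate evidence. Of 13 markers of dividing cells 5 were named (HTB2, AUR1, AUR2, MCM7 and TOPII), and their sum was 260 to 273 on day 6, the day of the lowest TBL39 mean, against 491 to 566 on day 0. On day 6, 4 of these 5 were called lower than on day 0, against 28% of all tested probe sets, and AUR2 did not pass (0.31 ± 0.22). Unlike the sum, AUR2 had its highest mean on day 4, with 42.0 and 48.7, against 28.3 and 24.4 on day 0. One of 12 phloem markers was named: OPS gave 188 and 156 on day 10, against 13.0 and 15.2 on day 0. No photosynthesis marker was named. The part of a changing mix of cells in the TBL courses was not tested.

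The genes of most similar course were taken, for each of the 4, as the 5 with the highest Pearson correlation of log2 signal over the 12 arrays among 8305 tested probe sets of 1 gene. These correlations describe points that share arrays, cultures and days. Genes picked this way tend to share high and low days with the TBL gene, so shared days below are a description. Where a gene was dim, its correlation takes in low values that are not measured. For TBL34 they were AT5G40020 (0.992), AT3G52900, AT2G27740 and AT1G24030 (0.991 each) and AT2G38820 (0.989). The first 4 were dim before day 4, and day 6 gave their highest means, 1165 for AT5G40020 and 1901 for AT1G24030 among them. TBL34 correlated at 0.982 with IRX15-L, 0.948 with IRX15 and 0.910 with IRX10. Of these, TBL34, IRX15-L and IRX15 were dim on days 0 and 2, and IRX10 was dim on no array. In all, 113 of the 8305 lay above 0.95 with TBL34.

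For TBL36 the nearest was SCPL45, a serine carboxypeptidase-like gene (0.988), whose mean was 77.9 (day 0), 390 (day 2), 986 (day 4), 474 (day 6), 376 (day 8) and 346 (day 10), with no dim array. AT3G17900 (0.984), AT2G43210 (0.982), AT4G23720 and AT5G64030 (0.972 each) followed, all highest on day 4. Above 0.95 with TBL36 were 42 probe sets. Within the family TBL36 lay nearest to TBL40 (0.894 for both probe sets) and TBL37 (0.866).

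For TBL39 the nearest were AT5G10820 (0.978), the jacalin-related lectin JAL34 (0.977), AT5G27760 and AT2G07705 (0.974 each) and AT5G26260 (0.973). AT5G26260 was above the percentile on 4 of 12 arrays. JAL34 had means of 2494 (day 0), 945 (day 2), 276 (day 4), 208 (day 6), 336 (day 8) and 412 (day 10), lowest on the same day as TBL39. TBL39 correlated with TBL34 at -0.941. For TBL26 the nearest were AT1G25460 (0.967), AT1G68620 (0.957), AT5G65380 and AT2G18360 (0.956 each) and AT5G61560 (0.953), and these 5 were the only ones of the 8305 above 0.95. Each had its highest mean on day 0. AT1G68620 was above the percentile on 3 of 12 arrays and AT1G25460 on 8, so the order of their low days is not measured. TBL26 correlated with TBL37 at -0.937 and with TBL36 at -0.930.

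**Figure D4:**
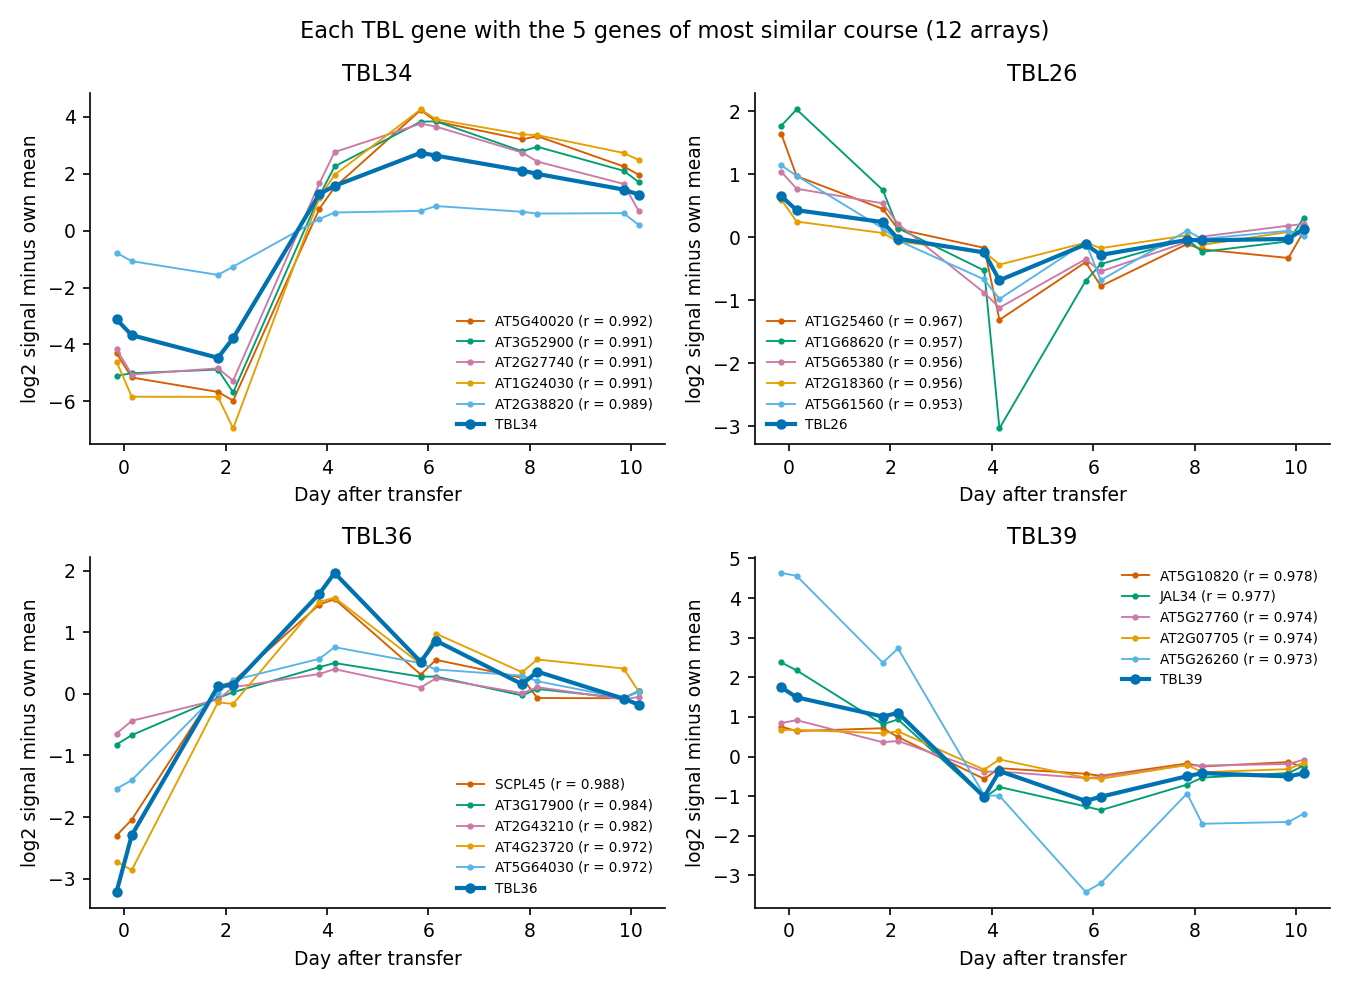
Log2 signal minus the gene's own mean over 12 arrays (y axis) against day after transfer for each TBL gene (thick blue) and its 5 nearest genes, with replicate 1 drawn just left of replicate 2; lines only guide the eye. The genes near TBL34 step up between days 2 and 4, those near TBL36 are highest on day 4, and those near TBL26 and TBL39 are highest on day 0; r is Pearson's correlation, given with no test.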

How the data were processed

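Signals on ATH1 arrays were used as the authors deposited them: linear intensity values, 1 per probe set. The submitters' processing notes name MAS5, with a version not given in the sources used here. The trimmed mean was 100 on every array, which shows a common scaling, and array medians were 33.2 to 40.7. Detection calls were not used. The number of arrays limits the precision.

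Genes came from the platform annotation: of 22746 probe sets that are not controls, 13513 have 1 gene. The 4 TBL genes matched RefSeq loci. Members and gene lists were chosen with earlier results of these data known.

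The model, from limma 3.58.1 under R 4.3.3, gave log2 signal a mean for each day, used the 12 arrays jointly without a block, moderated variances with a trend, and was tested 2-sided at an adjusted p under 0.05 (Benjamini-Hochberg) over 15103 probe sets; 7643 dim ones were left out. The fit has 6 residual degrees of freedom. The steps were tested on simulated data. Named genes are all TBL genes, up to 3 per wall list by size of change on day 6, and the 5 nearest per TBL gene. TBL40 is given by 2 probe sets. Alternatives were other scalings, filters, a pseudocount, a floor, no trend, the replicate number as a block and leaving out each array.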

Additional observations from a re-analysis of the deposited data

How the results depend on the processing

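The 4 TBL genes were chosen by these same signals, and their differences from day 0 all share the day 0 arrays. How often a sign was kept is therefore a description of the processing, from which no support is drawn. For the 4 TBL genes, 30 of 32 differences kept their sign under all 20 alternatives. The exceptions were TBL39 on day 8 against day 4 (-0.09 without replicate 1 of day 4) and TBL34 on day 2 against day 0, dim on both days, at -0.73 and at 0.03 with arrays raised to their 40th percentile, a setting that removes differences below it by construction. Leaving out 1 array moved the number of probe sets called between 1931 and 3629 (3475 with all arrays) for day 8 against day 4, and between 1499 and 3156 (2912) for day 10 against day 6; in the other 6 comparisons the count stayed within 1.5 times. With arrays centred on their medians, the share of higher calls was 42.8% on day 6 (55.2% as deposited), 40% on day 8 (57.1%), 41.4% on day 10 (56.9%), 31.5% for day 8 against day 4 (52.9%), 42.7% for day 10 against day 6 (55.5%) and 38.6% for day 6 against day 2 (48.0%), and the median change of all probe sets moved from 0.05 to -0.13, 0.09 to -0.17, 0.08 to -0.16, 0.02 to -0.11 and 0.05 to -0.00; for day 4 it moved from 0.10 to -0.02, and for day 6 against day 2 from -0.02 to -0.13. Other TBL genes called higher on day 4 numbered 7 of 10 as deposited and 6 with median centring. Across days, the deviations of same-numbered arrays correlated at -0.0671 to 0.128 in 15 pairs of days, so replicate numbers are not taken to pair arrays; with the replicate number as a block, 9639 probe sets were called on day 6 against 9439 without, and no call of a TBL gene changed. Signals under the 40th percentile limit what can be said of TBL34 before day 4 and of TBL36 on day 0.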
